A study of Mus musculus with 4 samples.

Results

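Type 1 conventional dendritic cells (cDC1) of the mouse inguinal fat pad were described here as 53 barcodes out of 14931 that passed the cell filter. They were chosen by raw transcript counts: at least 1 unique molecular identifier (UMI, 1 counted transcript molecule) of Xcr1 or Clec9a, at least 3 detected genes among the 7 genes Xcr1, Clec9a, Cadm1, Wdfy4, Irf8, Naaa and Batf3, and no UMI of Cd79a (B cells), Cd3e (T cells) or Ccr7 (migratory dendritic cells). The Lin+ control library held 18 of them, the Lin+ iAdFASNKO library 7, the Lin- control library 12 and the Lin- iAdFASNKO library 16. Because these genes selected the cells, their levels are a description and support nothing.

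Conventional dendritic cells sample antigen in tissues and present it to T cells. The cDC1 lineage depends on the transcription factors Irf8, Batf3 and Id2 and senses dead cells with the receptor Clec9a. It passes material from dead cells to the MHC class I pathway, a route called cross-presentation in which Wdfy4 takes part. Its chemokine receptor Xcr1 binds Xcl1, which natural killer (NK) cells and activated CD8 T cells secrete. The growth factor Flt3l, acting on the receptor Flt3, sustains dendritic cells in tissues. The other conventional lineage, cDC2, carries Cd209a, Clec10a and Sirpa and presents antigen mainly on MHC class II.

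The samples were stromal vascular cells, the non-adipocyte cells of a digested fat pad, from 7 pooled control mice, for which the design text names the strain C57BL/6, and 8 pooled iAdFASNKO mice, a name left unexplained in the labels and known for inducible loss of Fasn, the fatty acid synthase gene, from adipocytes. The labels used here state no age, sex, allele or inducing agent. Each pool was sorted on beads into cells that carry lineage markers (Lin+, described as immune) and the remaining Lin- fraction, after lysis of red cells, and each fraction became 1 library of UMI counts. With 1 library for each genotype and fraction no difference has a replicate check, both fractions of a genotype come from the same mice, and every 95% interval given here covers counting error only. Where summed counts are compared, fewer transcripts per cell and fewer cells with the transcript cannot be told apart.

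The cell filter asked for 300 genes, 500 UMIs and no more than 10% mitochondrial UMIs, and it kept 14931 of 18336 barcodes. Kept barcodes numbered 2922 in Lin+ control, 4494 in Lin+ iAdFASNKO, 3103 in Lin- control and 4412 in Lin- iAdFASNKO, with median UMIs from 3339 to 9138. Between 59 and 110 barcode sequences recurred in each pair of libraries, and none of them was a cDC1. Scrublet marked 1 of the 53 as a doublet, in Lin+ iAdFASNKO.

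Depth differed between the 4 sets of cDC1. Their summed UMIs were 130364 in Lin+ control, 78626 in Lin+ iAdFASNKO, 91824 in Lin- control and 50200 in Lin- iAdFASNKO. Median UMIs per cell were 7633, 10082, 8213 and 2462 in the same order, so the Lin- iAdFASNKO cells were the shallowest. Their median of 927.5 detected genes compared with 2160 in Lin- control. Levels below are UMIs per 1000000 UMIs of the summed cells (CPM). Malat1, a noncoding RNA kept in the nucleus, stood at 121972 CPM in Lin- iAdFASNKO cDC1 against 48048 in Lin- control, 45250 in Lin+ control and 35065 in Lin+ iAdFASNKO. In the other kept Lin- barcodes the ratio of iAdFASNKO to control for Malat1 was 1.55, and in Lin- cDC1 it was 2.54. The part of depth and of Malat1 in the Lin- gene comparisons was not tested.

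The count of barcodes at each step shows how narrow the selection was. Xcr1 or Clec9a was present in 111 barcodes, of which 87 passed the cell filter and 59 also had at least 3 of the 7 genes. Cd79a removed 2 of these, Cd3e 3 and Ccr7 1. These exclusions were uneven: they left 18 of 19 in Lin+ control, 7 of 12 in Lin+ iAdFASNKO and all in both Lin- libraries. A further 16 barcodes met every count demand but not the cell filter, 9 of them in Lin- control. Just inside the threshold, 7 cells had exactly 3 of the 7 genes, with a median of 2970 UMIs and of 273 MHC class II UMIs per 10000. Just outside it, 15 barcodes had exactly 2, with a median of 6618 UMIs and of 2.31 MHC class II UMIs per 10000 (354 in Lin+ control). The medians for UMIs of the other cDC1 genes were 7 inside and 8 outside.

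The surface receptors are given first. Xcr1 (mm10, chr9:123852315-123862029, minus strand) had 25 UMIs in 11 of 18 Lin+ control cells, 22 in 4 of 7 Lin+ iAdFASNKO cells, 10 in 6 of 12 Lin- control cells and 15 in 11 of 16 Lin- iAdFASNKO cells. Clec9a (chr6:129408862-129424763, plus strand) had 45, 12, 26 and 19 UMIs in the same order and was detected in 47 of the 53 cells. Cadm1, an adhesion molecule that marks cDC1 (chr9:47530173-47857637, plus strand), had 56 UMIs in 28 cells. As the selection asked for Xcr1 or Clec9a, these counts do not check the label.

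Among the transcription factors, Irf8 (chr8:120736358-120756694, plus strand) had 613 UMIs in 52 of 53 cells and Batf3 (chr1:191097847-191108945, plus strand) 65 UMIs in 31. Wdfy4 (chr14:32959547-33185508, minus strand) had 237 UMIs in 45 cells. Naaa, a lysosomal acid amidase (chr5:92257659-92278170, minus strand), had 442 UMIs in 46 cells. By library the level of Irf8 ran from 1448 CPM in Lin- control to 2002 in Lin+ control, and the interval of the ratio of iAdFASNKO to control held 1 in both fractions (0.864, 0.697–1.07 in Lin+, and 1.14, 0.857–1.51 in Lin-). Naaa spread more widely, with 1703 CPM in Lin+ control, 1246 in Lin+ iAdFASNKO, 1035 in Lin- control and 538 in Lin- iAdFASNKO.

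**Figure D1:**
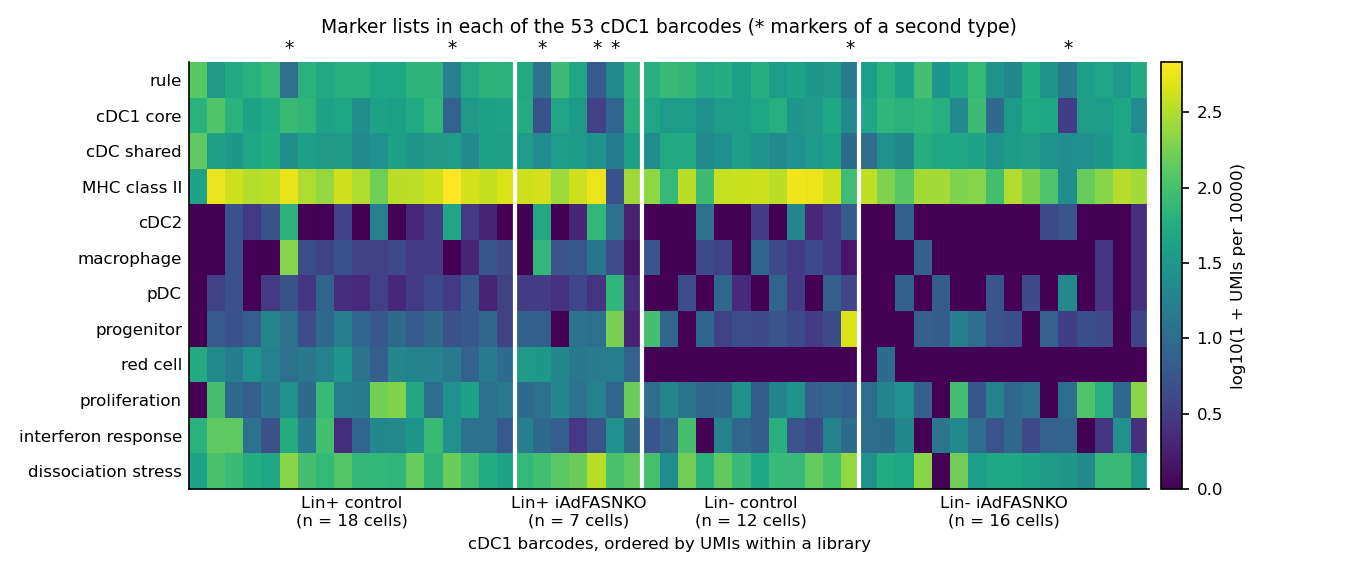
Marker lists (rows, UMIs of all list genes per 10000 UMIs of the cell, shown as log10 of 1 plus the value) in each of the 53 cDC1 barcodes (columns), grouped by library and ordered by depth. Stars mark the 7 barcodes that also carried markers of a second type; MHC class II is high in nearly every column, and red cell transcripts appear in all Lin+ columns.

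By a criterion set after the values were seen, 7 of the 53 barcodes also carried markers of a second type: the marker count of the cDC2, macrophage or progenitor class, or a UMI of Siglech, a receptor of plasmacytoid dendritic cells. Lin+ iAdFASNKO held 3 of these 7, Lin+ control 2, and Lin- control and Lin- iAdFASNKO 1 each. One Lin+ iAdFASNKO barcode had 18954 UMIs with 333 from progenitor genes, 138 from plasmacytoid genes and only 4.22 MHC class II UMIs per 10000; it was the doublet call. A second Lin+ iAdFASNKO barcode had 30 UMIs of Cd209a and none of Irf8. A Lin- control barcode of 19870 UMIs had 934 from progenitor genes. In Lin+ control a barcode had 103 UMIs from macrophage genes. Some of these barcodes are among the deepest and weigh on sums, so most counts of genes below are given with all members and without these 7. The criterion reads no NK cell genes and not every progenitor UMI: outside the 7, a Lin- iAdFASNKO barcode of 2261 UMIs had 23 from 5 NK cell genes and a Lin- control barcode of 2177 UMIs had 21 from 5 progenitor genes. Both stay in the values given without the 7. The highest level of the whole macrophage list in 1 barcode was 206 UMIs per 10000, and 7.09 outside the 7. For the neutrophil list it was 11.98 and 2.05, for the endothelial list 4.73 and 4.60, and for the T cell list, whose gene Cd3e the selection barred, 2.36 and 2.17.

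Haemoglobin transcripts split the fractions. Every Lin+ cDC1 had between 5 and 30 red cell UMIs, whereas 27 of the 28 Lin- cDC1 had 0 and the last had 1. The medians were 15.6 red cell UMIs per 10000 in Lin+ control and 15.8 in Lin+ iAdFASNKO.

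Set beside the other cell classes, the 7 genes differed in how far they were shared. Over all libraries Irf8 stood at 1746 CPM (1611–1890) in cDC1, 420 in NK cells, 390 in B cells, 258 in cDC2 and 172 in macrophages. Wdfy4 stood at 675 in cDC1, 121 in B cells and 92.8 in cDC2, and it was detected in 84.9% of cDC1 (median 5529 UMIs per cell) against 0.184% of progenitors (median 8009 UMIs). After each cell was thinned to 1500 UMIs, which left out 3 cDC1, the Wdfy4 shares were 60% and 0.0319%. Irf8 was detected in 94% of cDC1, 45.9% of B cells and 9.21% of cDC2 after thinning. Before thinning, the 139 Irf8 UMIs of cDC2 lay in 8 of 77 cells. The B cell lineage is known to use both genes.

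Batf3 gave the least separation from other dendritic cells. It stood at 185 CPM (143–236) in cDC1 and 197 (144–263) in migratory dendritic cells, so these neighbours did not differ beyond counting error, with 64.9 in cDC2 and 49.6 in macrophages. Naaa stood at 1259 in cDC1, 213 in cDC2, 138 in macrophages and 60.1 in progenitors. Xcr1 had 0 UMIs in 1814 B cells, 8 UMIs in 6510 progenitors and 9 UMIs in 1069 T cells. Clec9a had 5 UMIs in B cells and 1 in progenitors. In cDC2 and macrophages both receptors are at 0 because those classes were defined without them.

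**Figure D2:**
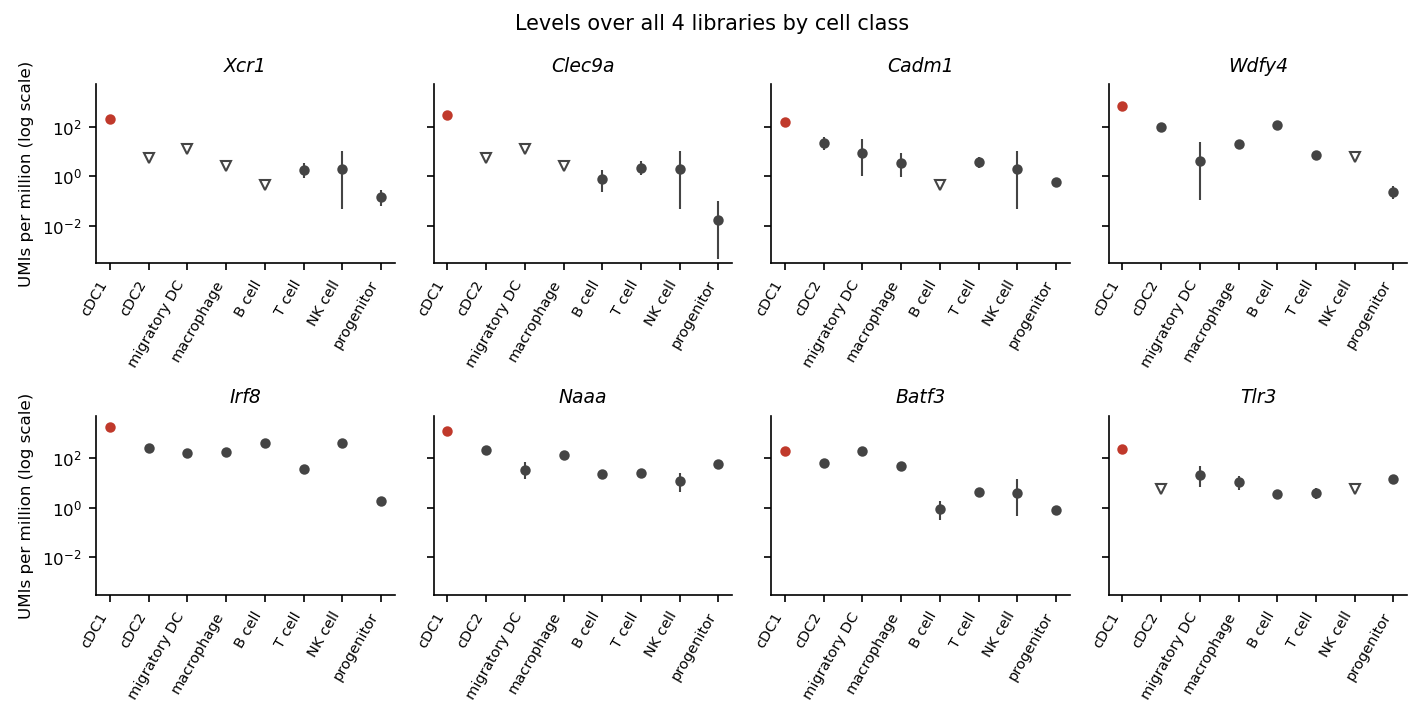
CPM (log scale) of the 7 selection genes and Tlr3 in 8 cell classes, summed over the 4 libraries, with 95% Poisson intervals. Open triangles mark classes with 0 UMIs, placed at the level that 3 UMIs would give; cDC1 (red) lie highest in every panel but Batf3, where migratory dendritic cells reach 197 against 185.

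Other genes known for cDC1, which the selection did not read directly, were present in most libraries. Of 20 listed genes, 19 had at least 1 UMI, and the orphan receptor Gpr33 had 0. The lysosomal thioesterase Ppt1 had 310 UMIs in 46 of 53 cells, the interferon-inducible gene Ifi205 had 268 in 38, the endosomal GTPase Rab7b 133 in 43, Cd24a 131 in 31 and Sept3 126 in 36. Some of them are shared with other classes: Ifi205 stood at 1069 CPM in progenitors and 764 in cDC1, Rab7b at 266 in macrophages and 379 in cDC1, and Cd24a at 230 in B cells and 373 in cDC1. Tlr3, the endosomal receptor for double-stranded RNA, had 81 UMIs in 32 cells. The levels of Tlr3 were 230 CPM in Lin+ control, 203 in Lin+ iAdFASNKO, 272 in Lin- control and 199 in Lin- iAdFASNKO, a narrow range over the 4 libraries. Itgae, which encodes CD103, was found in only 5 cells (6 UMIs), and Cd8a in 2 cells (9 UMIs). Cd207 (langerin) had 0 UMIs, which allows up to 8.55 CPM.

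Genes higher in cDC1 in each of the 4 libraries were ranked by the ratio of mean level in cDC1 to that in the 77 cDC2. The 20 leading genes began with Clec9a, Tlr3, Xcr1, Snx22 and Gcsam, all at 0 UMIs in cDC2. For Clec9a and Xcr1 this was fixed in advance, since the cDC1 rule asked for either and the cDC2 rule barred both. Against 3 UMIs in cDC2, pooled levels were at least 41.5-fold higher for Tlr3, at least 24.6-fold for the sorting nexin Snx22 and at least 19.5-fold for Gcsam. The next genes were Cxcl9, Gatm, Hist1h1b, Cd36, AC163354.1, Slc8b1, Rab7b, Kit, Pdia5, Trim7, Rtl8a, Sgk1, Pik3cb, Ifi211 and Rtl8b. Rab7b, with 133 UMIs in cDC1 and 15 in cDC2, had a pooled ratio of 13.6 (7.96–25.0). Kit, the stem cell factor receptor, had 38 and 4 UMIs and a pooled ratio of 14.6 (5.25–56.3). Gatm, the first enzyme of creatine synthesis, had 37 and 2 UMIs. Cxcl9 and Hist1h1b ranked on few cells, with UMIs in 6 and 7 cDC1. In all, 444 of 2461 genes with at least 20 UMIs in cDC1 were higher in cDC1 in each of the 4 libraries, but each Lin- library held only 1 cDC2. These are contrasts between classes chosen by markers and carry no test.

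**Figure D3:**
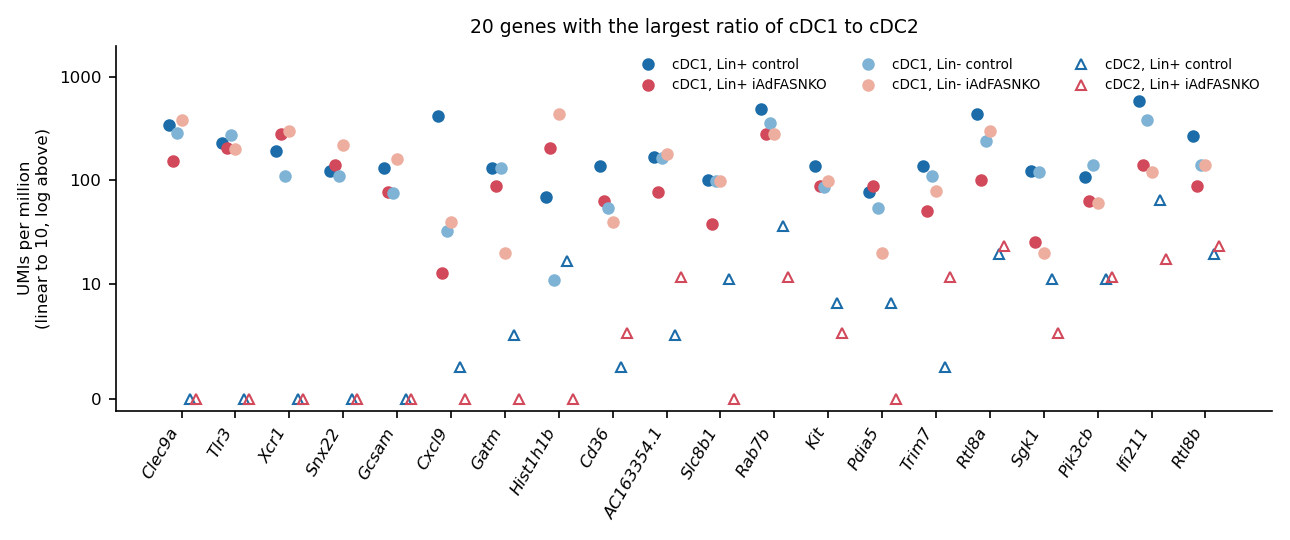
CPM (linear to 10, logarithmic above) of the 20 genes with the largest ratio of cDC1 to cDC2, in cDC1 of each library (filled circles) and in cDC2 of the 2 Lin+ libraries (open triangles; each Lin- library had 1 cDC2). Clec9a, Tlr3, Xcr1, Snx22 and Gcsam lie at 0 in cDC2, Clec9a and Xcr1 by the cDC2 rule. Cxcl9 and Hist1h1b are uneven across the cDC1 libraries.

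The lineage factors differed between the 2 conventional lineages in some genes and not in others. Id2 had 293 UMIs in 44 cDC1, a level of 835 CPM against 63.1 in cDC2. Irf4, a factor of cDC2, had 2 UMIs in cDC1 (5.70 CPM) and 85.3 CPM in cDC2. Zeb2 had 86 UMIs in 9 cDC1 and a level of 245 CPM, against 822 in cDC2; 59 of the 86 lay in 3 Lin+ iAdFASNKO cells. Cbfa2t3 stood at 595 (517–682) and 599 (536–668) CPM, and the growth factor receptor Flt3 stood at 188 (145–239) and 176 (143–215). Zbtb46, a gene shared by conventional dendritic cells, was seen in 15 cDC1 with 22 UMIs. Irf4 and Flt3 were among the genes that defined the cDC2 class, so their cDC2 levels are set in part by that rule.

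Antigen presentation genes were abundant. Cd74, the invariant chain, had 5074 UMIs and was found in all 53 cells, and the class II chains H2-Aa, H2-Ab1 and H2-Eb1 were found in 50, 52 and 51 cells. The protease inhibitor Cst3 had 5129 UMIs, a level of 14612 CPM against 3293 in cDC2. H2-Aa stood at 6806 in cDC1 and 9403 in cDC2. In the class I pathway H2-D1 had 350 UMIs, B2m 328, the proteasome activator Psme1 296 and H2-K1 259, and the peptide transporter Tap1 was found in 36 cells.

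Genes of innate sensing beyond Tlr3 were few. Unc93b1, which carries endosomal Toll-like receptors to their compartment, had 121 UMIs in 42 cells. Tlr11 had 16 UMIs in 12 cells, and Tlr7 and Tlr9 had 2 UMIs each in 1 cell. Cytokine transcripts were rare too: Il12a, Il12b and Il6 had 0 UMIs, and Ccl22 and Ccl17 came from 2 and 3 cells. Among costimulatory and inhibitory molecules Cd83 had 56 UMIs in 18 cells, Btla 47 in 28, Havcr2 33 in 22 and Cd86 24 in 18. Cd40 was found in 2 cells, and Cd274 (PD-L1) and Ido1 had 0 UMIs. The chemokine receptor Ccr2 had 167 UMIs in 37 cells.

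Xcl1, the ligand of Xcr1, had 0 UMIs in cDC1. Its transcripts lay in NK cells, with 579 CPM in Lin+ control, 449 in Lin+ iAdFASNKO, 819 in Lin- control and 331 in Lin- iAdFASNKO. In T cells it had 98 UMIs in Lin+ control, 106 in Lin+ iAdFASNKO, 0 in Lin- control and 2 in Lin- iAdFASNKO. After thinning, Xcl1 was detected in 46.4% of NK cells (median 3262 UMIs before thinning) and 0.0654% of B cells (median 2463). NK cells numbered 52, 21, 31 and 21 in the 4 libraries, so ligand-bearing cells accompanied cDC1 in both fractions. Flt3l was spread over many classes, at 55.4 CPM in NK cells, 44.7 in T cells and 23.6 in progenitors.

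Frequency was compared next, between genotypes within a fraction. In Lin+, cDC1 were 0.616% of kept barcodes in control (18 of 2922, Clopper-Pearson 95% interval 0.365–0.972) and 0.156% in iAdFASNKO (7 of 4494, 0.0626–0.321). The ratio was 0.253 (Katz interval 0.106–0.605), and 0.163 (0.0544–0.486) without the 7 barcodes with markers of a second type. In Lin- the shares were 0.387% (12 of 3103, 0.200–0.675) and 0.363% (16 of 4412, 0.207–0.588), a ratio of 0.938 (0.444–1.98). The interval left out 1 in Lin+ and held 1 in Lin-, and the difference between the fractions was not tested. Before Cd79a, Cd3e and Ccr7 were barred, the Lin+ barcodes numbered 19 in control and 12 in iAdFASNKO. The part of these exclusions in the Lin+ ratio was not tested. With a stricter cell filter (500 genes, 1000 UMIs, at most 5% mitochondrial) the Lin+ ratio no longer left out 1 (4 of 2053 against 8 of 1812, ratio 0.441, 0.133–1.46), and the Lin- ratio was 0.445 (0.162–1.22).

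The makeup of the Lin+ libraries moved with this. B cells numbered 360 in Lin+ control and 1394 in Lin+ iAdFASNKO, and T cells 232 and 729. Macrophages numbered 140 and 65, and cDC2 51 and 24, a share of 1.75% and 0.534% of kept barcodes. Among cDC1 plus cDC2, cDC1 made up 26.1% in Lin+ control (18 of 69, 16.3–38.1) and 22.6% in Lin+ iAdFASNKO (7 of 31, 9.59–41.1), a ratio of 0.866 (0.403–1.86). Within conventional dendritic cells the Lin+ genotypes were therefore not separated beyond counting error, and the part of the other classes in the lower share was not tested.

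The bead sort placed cDC1 and cDC2 differently. Among cDC1 plus cDC2, cDC1 made up 92.3% in Lin- control (12 of 13) and 94.1% in Lin- iAdFASNKO (16 of 17), against 26.1% and 22.6% in Lin+. The ratio of Lin+ to Lin- was 0.283 (0.184–0.433) in control and 0.240 (0.124–0.465) in iAdFASNKO. Lin- held 0 macrophages in both genotypes, which allows up to 3 of 3103 and of 4412 barcodes, and 1 cDC2 in each. Over kept barcodes the Lin+ to Lin- ratio of cDC1 shares was 1.59 for control mice (0.769–3.30) and 0.430 for iAdFASNKO mice (0.177–1.04), neither beyond counting error. Without the 7 barcodes the second was 0.262 (0.0870–0.788), which leaves out 1. Among barcodes with at least 3 of 7 pan-leukocyte genes and none of Pdgfra, Col3a1, Acta2 and Cdh5, plus the cDC1 outside that class, cDC1 were 3.23% in Lin+ control, 0.408% in Lin+ iAdFASNKO, 9.76% in Lin- control and 7.05% in Lin- iAdFASNKO. The ratio of iAdFASNKO to control was 0.127 (0.0531–0.301) in Lin+ and 0.722 (0.353–1.48) in Lin-.

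Migratory dendritic cells, which carry Ccr7 on their way to lymph nodes, changed the picture when they were added to the denominator. They numbered 6 in Lin+ control, 10 in Lin+ iAdFASNKO, 2 in Lin- control and 24 in Lin- iAdFASNKO. Of all 3 dendritic classes together, cDC1 were 80% in Lin- control (12 of 15, 51.9–95.7) and 39.0% in Lin- iAdFASNKO (16 of 41, 24.2–55.5), a ratio of 0.488 (0.308–0.772). In Lin+ the shares were 24% and 17.1%, a ratio of 0.711 (0.324–1.56). Since the cDC1 rule itself demands no Ccr7, a cDC1 that gains Ccr7 would leave the cDC1 class. It would count as migratory only with at least 3 of Ccr7, Fscn1, Cacnb3, Il4i1, Ccl22, Socs2 and Nudt17 detected. Among barcodes that met the other count demands and the cell filter, Ccr7 removed 0 in Lin- control and 0 in Lin- iAdFASNKO.

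**Figure D4:**
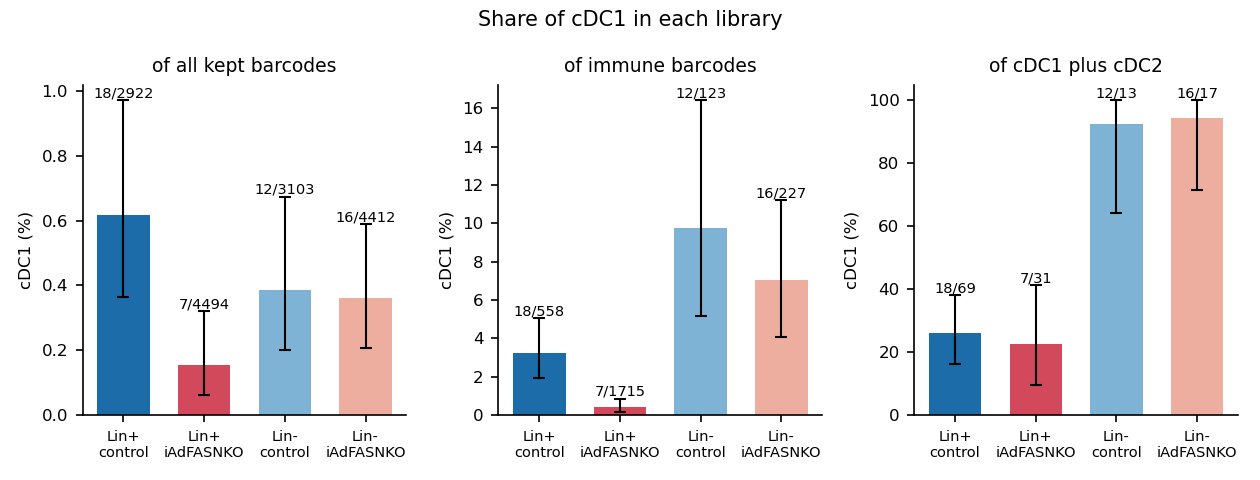
Share of cDC1 (%) in each library, of all kept barcodes, of immune barcodes and of cDC1 plus cDC2; bars start at 0, whiskers are Clopper-Pearson 95% intervals and labels give the counts. Lin+ iAdFASNKO is lowest in all 3 panels (0.156%, 0.408% and 22.6%), and both Lin- libraries exceed 92% in the last.

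Levels of each gene were then compared by genotype within cDC1. Genes with a sum of 20 UMIs or more in the pair were taken as measured. They were called higher or lower where the ratio of iAdFASNKO to control reached 1.5 or its inverse, 0.667, and its exact binomial interval left out 1. In Lin-, 47 of 826 measured genes were higher, 5.69%, and 177 were lower, 21.4%, and the median log2 ratio over all of them was -0.35. In Lin+, 130 of 1494 were higher, 8.7%, and 126 lower, 8.43%, with a median of -0.01. Without the 7 barcodes, 31 genes were higher in Lin- and 75 higher and 75 lower in Lin+. The count lower in Lin- without them is not reported here. With them left out fewer genes reached 20 UMIs, so a lost call need not be a changed ratio. Of the 47 genes higher in Lin-, all 47 were measured in Lin+, where 5 were called higher and 3 lower. Of the 177 lower, 157 were measured in Lin+, where 14 were called lower and 31 higher.

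Proliferation genes led the list of genes higher in Lin- iAdFASNKO cDC1. Stmn1, a microtubule regulator, had 34 UMIs in 3 of 16 iAdFASNKO cells and 1 UMI in 12 control cells, a ratio of 62.2 (10.4–2528). Hist1h2ae had 36 UMIs in 2 cells against 0 in control, at least 21.9-fold higher against 3 UMIs. Hist1h1b had 22 UMIs in 3 cells and 1 in control. Without the top cell of each library all 3 genes were at 0 in control. The tubulins Tubb5 (ratio 5.85, 2.81–13.3) and Tuba1b (3.54, 1.84–7.10) and the chromatin protein Hmgb1 (3.34, 2.09–5.45) followed. Genes less tied to division were Lars2 (59 against 27 UMIs), Cbx3, Slc38a2, Dnajb6, Serinc3 and Calm2, the last 5 with ratios from 2.74 to 3.82. In the other kept Lin- barcodes the ratios of these 12 genes ran from 0.853 (Serinc3) to 2.76 (Hist1h1b). There Hist1h2ae had 2.46, Stmn1 1.51, Hmgb1 1.22, Tubb5 1.02 and Tuba1b 0.917. Of the 12 genes, all lay on the same side in Lin+, as the naming rule required, and Stmn1, Hist1h1b, Hist1h2ae, Tuba1b and Hmgb1 were called there too.

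These values came from few cells. At least 10 of 29 proliferation genes were detected in 5 of 18 Lin+ control cells (27.8%, 9.69–53.5), 1 of 7 Lin+ iAdFASNKO cells (14.3%, 0.361–57.9), 0 of 12 Lin- control cells (upper bound 26.5%) and 3 of 16 Lin- iAdFASNKO cells (18.8%, 4.05–45.6). All 4 intervals overlapped. Mki67 was found in 8 of the 53 cells, at most 30 UMIs in 1 cell, the deepest Lin+ iAdFASNKO barcode with 22195 UMIs. On the list, 4 of 5 measured genes were higher in Lin- (median log2 ratio 2.55). In Lin+ 4 of 12 were higher and 2 lower (median 0.43, and -1.24 without the top cell of each gene). Over all genes, 5.69% were higher in Lin- and 8.7% in Lin+.

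Among genes lower in Lin- iAdFASNKO cDC1 were those of connective tissue progenitors, such as Col3a1 (ratio 0.0138) and Dcn (0.0179). Of the progenitor list, 5 of 5 measured genes were lower in Lin- (median log2 ratio -4.45) and 5 of 5 higher in Lin+ (3.54). Over all genes, 21.4% were lower in Lin- and 8.7% higher in Lin+. The Lin- control barcode rich in progenitor genes held 304 Dcn UMIs. The Lin+ iAdFASNKO doublet call was rich in progenitor genes too, and in that library 1 barcode held 53 of 55 Pi16 UMIs. The 12 genes named next had to keep their side in Lin+ and without their top cell, which left Col3a1 and Dcn out. The top cell was taken from each library, so a gene with its iAdFASNKO UMIs in 1 cell fell to 0 there. For Mt1, Ifitm2, Ifi27l2a, Cox7a2l and Gltp the ratio became 0 in this way, so for them this step is no check. Lowest among the 12 was Ifitm3, which like Ifitm2 encodes an interferon-inducible membrane protein. Ifitm3 had 2 UMIs in 16 iAdFASNKO cells and 98 UMIs in 8 of 12 control cells, a ratio of 0.0373 (0.00446–0.138), against 0.874 in the other Lin- barcodes. Ifitm2 had 1 and 32 UMIs, a ratio of 0.0572 (0.00140–0.342). In Lin+ neither was called, with ratios of 0.720 and 0.663, but without the 7 barcodes Ifitm3 was at 0 UMIs in Lin+ iAdFASNKO, where 18 of its 33 lay in 1 of them. Ifi27l2a had 2 UMIs against 42 in Lin- (ratio 0.0871, 0.0102–0.335), where 27 of the 42 lay in 1 cell. It had 9 against 91 in Lin+ (ratio 0.164, 0.0727–0.325), and both were called. Slfn5, a growth regulatory gene of the Schlafen family, was called in both as well, with 3 against 34 UMIs in Lin- (ratio 0.161, 0.0317–0.513) and 4 against 68 in Lin+ (ratio 0.0975).

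The other named genes were Mt1, Pnp, Ctsz, Ccnd2, Cox7a2l, Dazap2, Atp6v1g1 and Gltp, all with 2 or 3 UMIs in Lin- iAdFASNKO. Mt1, a metallothionein, had 69 of its 71 control UMIs in 1 barcode, the one rich in progenitor genes, with a ratio of 0.0515 (0.00612–0.193); outside that barcode both libraries had 2 UMIs. Ctsz, a lysosomal protease, had 2 UMIs against 25 in 8 control cells, a ratio of 0.146 (0.0168–0.587). Ccnd2 had 19 of 23 control UMIs in 1 cell. For Pnp, Cox7a2l, Dazap2, Atp6v1g1 and Gltp the ratios ran from 0.141 (0.0162–0.562) to 0.203 (0.0229–0.849). In the other kept Lin- barcodes the ratios of the named lower genes ran from 0.551 (Ifi27l2a) to 1.19 (Ccnd2). There Ctsz had 0.565, Mt1 0.698, Ifitm2 0.771 and Slfn5 0.827.

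The interferon response list was lower in Lin+. Over all genes in Lin+, 8.43% were lower and 8.7% higher. Of the 24 genes of the list, 9 were measured, and 8 were lower and 1 higher (median log2 ratio -1.91). Without the 7 barcodes 4 of 8 were lower and 0 higher (median -1.48). Without the top cell of each gene 3 of 7 were lower and 0 higher (median -1.66). Stat2, which carries interferon signals to the nucleus, had 31 UMIs in control and 6 in iAdFASNKO (ratio 0.321, 0.109–0.781), and in the same order Irf7 had 25 and 4 (0.265, 0.0671–0.768) and Isg15 had 20 and 0. Cxcl9, a chemokine that draws T cells, had 54 UMIs in 2 control cells, 30 and 24, and 1 in iAdFASNKO. Bst2 was higher, at 36 against 23 UMIs, with 30 of the 36 in 1 barcode, the one with plasmacytoid genes.

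In Lin- 4 genes of that list were measured, and 1, Ifi27l2a, was lower (median log2 ratio -0.97). This count lay near the share over all measured Lin- genes, 21.4% lower with a median of -0.35. Per cell, interferon UMIs per 10000 had medians of 20.1 in Lin+ control and 8.32 in Lin+ iAdFASNKO, and of 7.61 and 7.30 in Lin- control and iAdFASNKO. The ranges overlapped in both fractions, reaching 134 in Lin+ control and 97.8 in Lin- control against 25.9 and 26.0 in iAdFASNKO.

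Some MHC class II genes were lower in iAdFASNKO sums. In Lin-, 3 of 7 measured genes were lower and 0 higher (median log2 ratio -0.47, beside -0.35 and 21.4% lower over all genes). Cd74 stood at 9143 CPM in Lin- iAdFASNKO and 16161 in Lin- control, a ratio of 0.566 (0.508–0.629), and H2-Aa at 3287 and 6915, a ratio of 0.475 (0.398–0.565). H2-DMa, which loads peptide, had 12 and 53 UMIs (0.414, 0.201–0.785), whereas Ciita, the master regulator of the class, had a ratio of 1.20 (0.658–2.15). In Lin+, 3 of 8 measured genes were lower, beside 8.43% over all genes: H2-Eb1 (0.630, 0.547–0.723), H2-Ob (0.262, 0.0496–0.889) and Ciita (0.541). Without the 7 barcodes 4 of 7 were lower in Lin- and 1 of 8 in Lin+, and without the doublet call alone 0 of 8 were lower in Lin+ (median -0.14).

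Single cells gave a different picture by fraction. Class II UMIs per 10000 had a median of 364 in Lin- control (76.9–594) and 199 in Lin- iAdFASNKO (23.6–360), ranges that overlapped. In Lin+ the medians were 367 in control and 410 in iAdFASNKO, where the barcode with plasmacytoid genes had 4.22. In the class I list 5 of 14 measured genes were lower in Lin-, H2-D1, Calr, Cyba, Psme2 and Psmb8 (median log2 ratio -0.61). Over all genes, 21.4% were lower in Lin- (median -0.35) and 8.43% in Lin+ (median -0.01). In the class I list 2 of 22 were higher and 3 lower in Lin+ (median -0.36), and Calr changed side. H2-D1 had 112 UMIs in Lin- control and 23 in Lin- iAdFASNKO, a ratio of 0.376 (0.229–0.592), and 0.426 in the other Lin- barcodes.

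Of the oxidative phosphorylation genes 0 of 31 were higher and 3 lower in Lin- (median log2 ratio -0.13), beside 5.69% higher and 21.4% lower over all genes. In Lin+ 0 of 33 were higher and 1 lower (0.14), beside 8.7% and 8.43% over all genes. Without the 7 barcodes 5 of 30 were higher in Lin+ and 0 lower (0.42). The share over all genes in that setting is not reported here. Lysosomal genes were lower in 6 of 10 cases in Lin-, beside 21.4% over all genes. The 6 included Cst3 at a ratio of 0.637 (0.580–0.699), Naaa (27 against 95 UMIs), Ctsh, Ctsl and Ctsz. Ppt1 was higher at 1.58 (1.11–2.24). Of Ctsl, 29 of 31 control UMIs lay in 1 cell. In Lin+ Cst3 was lower at 0.519 (0.475–0.566) and Ctsb higher at 2.28 (1.53–3.43), the latter 0.964 without the 7 barcodes. Fasn had 17 UMIs in 13 cDC1 over all libraries, too few for a ratio.

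Early response and heat shock genes, which tissue digestion is known to induce, lay on opposite sides in the fractions. Over all genes, 21.4% were lower in Lin- and 8.7% higher in Lin+. In this list 10 of 19 measured genes were lower and 0 higher in Lin- iAdFASNKO (median log2 ratio -1.05). In Lin+ 13 of 19 were higher and 0 lower (median 1.02). Without the 7 barcodes 6 of 13 were lower in Lin- (-0.74) and 7 of 14 higher in Lin+ (0.75). With 2 of the 7 selection genes enough, 5 of 19 were lower and 2 higher in Lin- (median near 0, at -0.037), and 8 of 21 higher in Lin+ (0.37). Fos had 109 UMIs in Lin- control and 17 in Lin- iAdFASNKO (0.285, 0.160–0.478), and 22 in Lin+ control and 76 in Lin+ iAdFASNKO (5.73, 3.52–9.67). In the other kept barcodes the Fos ratios were 0.617 in Lin- and 0.515 in Lin+. Jun had 100 of 116 Lin- control UMIs in 1 barcode, and Egr1 all 77. Per cell the list had medians of 91.6 UMIs per 10000 in Lin- control, 43.5 in Lin- iAdFASNKO, 77.0 in Lin+ control and 126 in Lin+ iAdFASNKO, with ranges that overlapped. Its part in the other gene comparisons was not tested.

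**Figure D5:**
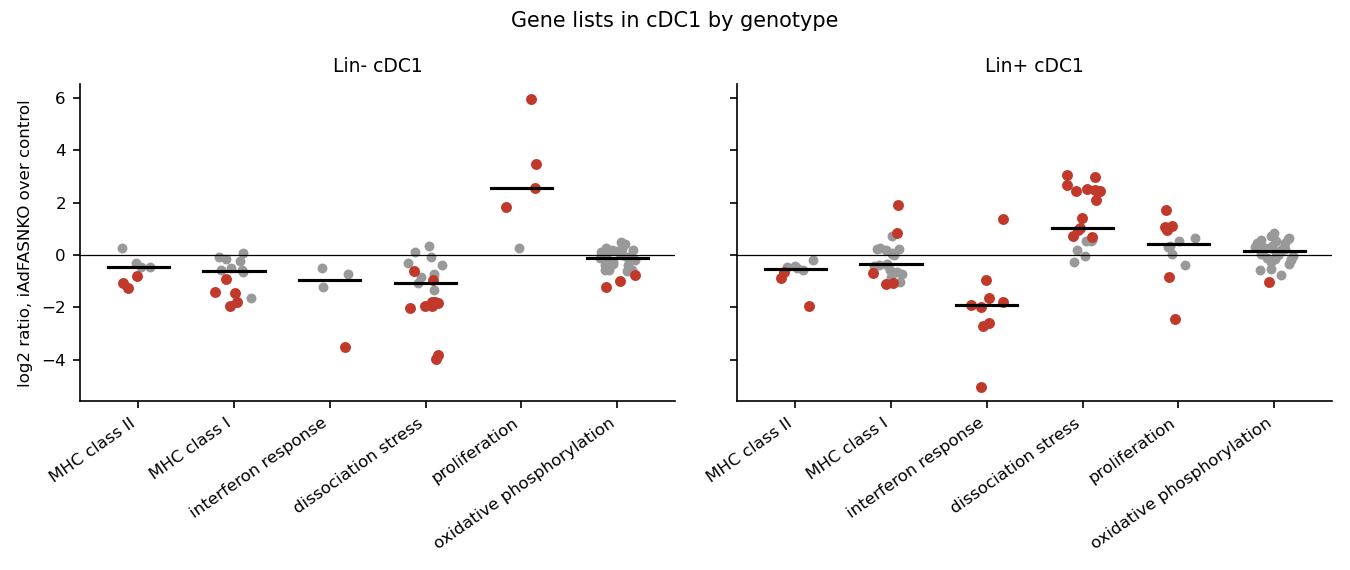
Log2 ratio of iAdFASNKO to control for each measured gene of 6 lists in Lin- (left) and Lin+ (right) cDC1; red points meet the size rule, grey points do not, lines are medians, and a library at 0 UMIs was set to 3. The dissociation stress list has medians of -1.05 and 1.02, and the interferon list -0.97 and -1.91.

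Between fractions of the same mice more genes were called in iAdFASNKO by share. In control, 137 of 1497 measured genes were higher in Lin+ cDC1, 9.15%, and 104 lower, 6.95%. In iAdFASNKO 179 of 799 were higher, 22.4%, and 40 lower, 5.01%. Without the 7 barcodes these counts were 80 and 67 in control and 93 and 15 in iAdFASNKO, over fewer measured genes. Among the named genes of control, Itgb2, the beta chain of leukocyte integrins, had 28 UMIs in 14 of 18 Lin+ cells and 4 in Lin- (ratio 4.93, 1.72–19.3), and in iAdFASNKO its ratio was 2.39, not called. Mki67 had 32 UMIs in 5 Lin+ control cells and 0 in Lin- control. In these sums the UMIs of C1qa, C1qb and Cd209a, and 53 of 55 of Pi16, came from 1 barcode each, among the 7.

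Selection genes also differed between fractions. Naaa was higher in Lin+ in both genotypes, with ratios of 1.65 (1.29–2.12) in control and 2.32 in iAdFASNKO. Clec9a was lower in Lin+ in iAdFASNKO (0.403, 0.179–0.875) and not called in control (1.22). Cadm1 was higher in Lin+ in control (28 against 9 UMIs, ratio 2.19, 1.01–5.28). Between genotypes Xcr1 was higher in Lin- iAdFASNKO (15 against 10 UMIs, ratio 2.74, 1.15–6.83), and Clec9a was lower in Lin+ iAdFASNKO (12 against 45 UMIs, ratio 0.442, 0.213–0.850). Cadm1 was lower in Lin+ iAdFASNKO too (7 against 28 UMIs, ratio 0.415, 0.153–0.971), and Naaa in Lin- iAdFASNKO. Irf8, Batf3 and Wdfy4 were called in none of the 4 comparisons. As the selection reads these genes, their differences are a description.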

How the data were processed

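Single-cell RNA sequencing was measured in 4 libraries of 3' tag counts. Values are the UMI counts as deposited, whole numbers for each gene in each barcode, with no normalization per the file headers. The submitters' processing notes list Cell Ranger 3.1.0, Seurat 3.0 and the genome mm10; a matrix header records version 3.0.2 of its software. No annotation release and no earlier barcode filter could be read from the labels. A matrix was tied to its genotype through its name and a barcode to its fraction through its tag.

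Filters, classes and the size rule are stated where first used. Counts were summed over the cDC1 of a library and scaled to CPM, and 4 listed symbols absent from the feature names (Amica1, Ifi30, Clec7a, 2810417H13Rik) were not analysed here. Shares carry Clopper-Pearson intervals, share ratios Katz intervals, levels exact Poisson intervals and level ratios exact conditional binomial intervals (Python 3.11.15, numpy 2.4.6, scipy 1.17.1, pandas 2.3.3). No test was run, since each group is 1 library. A level of 0 was compared through a floor of 3 UMIs. PCR duplicates are removed by UMIs, and intervals cover counting error only. Doublets were called with Scrublet (scanpy 1.11.5) and kept in the main setting. The ratio step was tested on simulated counts. Coordinates are from GENCODE M21.

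The members, lists and comparisons were chosen with earlier results of these data known. Named genes were the selection genes, the most abundant and the called members of each list, 20 leading genes against cDC2, 12 genes in each direction by genotype in Lin- that kept their side in Lin+ and without their top cell, and 8 in each direction by fraction; mitochondrial, ribosomal, haemoglobin, receptor segment and sex-linked genes were left out of the ranked parts. Id2, Irf4, Zeb2, Il12b, Cd274, Itgae and similar members were named after their values were seen. Alternatives covered the cell filter, the selection rule, doublet calls, single cells, totals, count minimums and the 7 mixed barcodes. Some members of the lists are not reported here.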

Additional observations from a re-analysis of the deposited data

Results flagged for a closer look

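The genotype contrast lay on opposite sides in the 2 fractions for the early response and heat shock list, with median log2 ratios of iAdFASNKO to control of -1.05 in Lin- and 1.02 in Lin+. With 2 of the 7 selection genes enough, the Lin- median was -0.037, with 2 genes higher and 5 lower in place of 0 and 10. Each group is 1 library, so the difference between fractions was not tested. Genes called in opposite directions were followed in the same way, each given as the log2 ratio in Lin- and then in Lin+.

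Among early response genes, Jun had -3.99 and 2.11, Egr1 -3.81 and 2.66, and Fos -1.81 and 2.52. Atf3 had -1.94 and 2.43, Jund -2.02 and 0.73, and Ier2, with a 0 set to 3 UMIs, -1.94 and 1.41. The chaperones Hspa1b and Hspa1a had -1.82 and 1.02, and -1.81 and 0.95. In Lin- control 1 barcode rich in progenitor genes held 100 of 116 Jun UMIs, all 77 of Egr1 and 70 of 109 of Fos, and in Lin+ iAdFASNKO 1 barcode with Cd209a held 41 of 76 Fos UMIs.

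Genes of connective tissue progenitors also split: Col3a1 had -6.18 and 1.61, Dcn -5.80 and 3.94, and Gsn -4.23 and 2.10. The same Lin- control barcode held 304 Dcn UMIs, and the Lin+ iAdFASNKO barcode with plasmacytoid genes held 105. Plac8 had -2.50 and 1.30, the chaperone Calr -1.94 and 0.85, and Hmgb2, a chromatin protein of dividing cells, 3.46 and -0.86. The part of single barcodes in these values was not tested beyond leaving them out.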

How the results depend on the processing

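No paired analysis was possible because each group is 1 library. With a stricter cell filter the genotype ratios of shares of kept barcodes were 0.441 (0.133–1.46) in Lin+, no longer leaving out 1, and 0.445 (0.162–1.22) in Lin-, and the fraction ratio in iAdFASNKO was 0.978. The immune share ratio was 0.268 (Lin- genotype, 0.101–0.706, now leaving out 1) and 0.231 (iAdFASNKO fraction), the cDC1 plus cDC2 ratio 0.167 (control fraction), genes higher in Lin- 28, genes lower in Lin+ 79 and the Lin+ proliferation median 2.27. Thinned to 1500 UMIs, the Lin- ratios were 1.72 (kept barcodes, 0.530–5.58, against 0.938), 1.95 (immune) and 1.25 (cDC1 plus cDC2). With 2 of the 7 genes enough, 73 genes were higher in Lin-, 235 higher and 231 lower in Lin+, the stress medians were -0.037 and 0.37, and Mt1 turned to 1.16 (log2). That setting summed more UMIs (110676 against 78626 in Lin+ iAdFASNKO). The number of measured genes changes with the setting and is not reported here, so counts of called genes are not comparable as shares. Without doublet calls the Lin+ class II median was -0.14. Without the top cell of each gene, 22 genes were higher in Lin- and 32 in Lin+, and the Lin+ medians turned from 0.43 to -1.24 (proliferation, -0.13 as a mean of cells) and from 0.14 to -0.24 (oxidative phosphorylation, -0.093 as a mean of cells). Without the 7 barcodes, a setting added after seeing the data, 31 genes were higher in Lin-, 75 higher and 75 lower in Lin+, with Lin+ medians of 1.15 (proliferation) and 0.42 (oxidative phosphorylation). By fraction this left 80 higher and 67 lower in control, where the class II median turned from 0.25 to -0.029, and 93 and 15 in iAdFASNKO, with medians of 1.20 (stress), 0.54 (proliferation) and 0.40 (oxidative phosphorylation). In cells of 2000 UMIs or more, also added after seeing the data, the interferon list by fraction in iAdFASNKO had only 1 measured gene, at 3.24. At 50 UMIs fewer genes were tested, and 18 were higher and 100 lower in Lin-, 46 and 56 in Lin+, 61 and 51 by fraction in control, and 91 and 21 in iAdFASNKO. At 10 UMIs 89 were higher in Lin- and 221 in Lin+. Apart from the count minimums and smaller cell sets, the cause was not tested. Depth limits most in the Lin- iAdFASNKO cells, with 50200 UMIs in all.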
